A study of Mus musculus with 20 samples.

Results

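Glutamate, potassium and water handling by astrocytes was described through 9 genes: *Slc1a2*, *Slc1a3* and *Glul* for glutamate, *Kcnj10* for potassium, *Aqp4* for water, *Gja1* and *Gjb6* for gap junctions, *Slc4a4* for bicarbonate, and *S100b*, a calcium-binding astrocyte protein. They were chosen by gene symbol, without use of their measured values, and each had a row among the 27998 genes of the single-cell RNA-seq (scRNA-seq) tables and among the 24062 genes of the bulk RNA-seq table. The study used Nestin-EGFP mice (C57BL/6 background) and sorted the EGFP+ cells of their dentate gyrus (DG). Each of the ages, postnatal day 5 (P5), 12 weeks (12w) and 24 weeks (24w), gave 1 scRNA-seq and 1 single-cell ATAC-seq (scATAC-seq) library. All of these mice carried the EGFP transgene driven by *Nestin* regulatory sequence, so the sort kept cells in which it was active, and in the adult this included many vessel cells. Separately, cultured mouse neural stem cells (NSCs) infected with lentivirus for Setd8 knockdown (KD) or its control were profiled 3 days after infection with puromycin selection. GEO's labels call them hippocampal, whereas the study's methods describe a multipotent culture from embryonic cortex that had been passaged many times.

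Astrocytes clear synaptically released glutamate through *Slc1a2* (GLT-1) and *Slc1a3* (GLAST), and glutamine synthetase, the product of *Glul*, converts it to glutamine. Potassium released by firing neurons enters through the inward rectifier *Kcnj10* (Kir4.1), water crosses at the endfeet through *Aqp4* (aquaporin-4), and *Gja1* (connexin 43) and *Gjb6* (connexin 30) join astrocytes into a network through which these solutes spread. *Slc4a4* (NBCe1) carries sodium and bicarbonate and so couples this traffic to pH. The radial NSCs of the adult DG share much of this astrocyte gene programme, which is why both populations are set side by side here.

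The promoters of 4 of the genes are shown because chromatin at their start sites was measured below and they differ widely in base composition. Each window covers 250 bases before and 50 bases after a transcription start site (RefSeq, GRCm38.p6, the mm10 assembly that the files use), is written 5′ to 3′ on the gene's own strand, and has every CG dinucleotide in capitals. Windows of 8 of the 9 genes were examined, and *Aqp4* was not among them. The windows shown lie at chr14:57133562-57133861 (minus strand, *Gjb6*), chr10:76253586-76253885 (plus, *S100b*), chr1:172340960-172341259 (plus, *Kcnj10*) and chr1:153899679-153899978 (plus, *Glul*).
Gjb6: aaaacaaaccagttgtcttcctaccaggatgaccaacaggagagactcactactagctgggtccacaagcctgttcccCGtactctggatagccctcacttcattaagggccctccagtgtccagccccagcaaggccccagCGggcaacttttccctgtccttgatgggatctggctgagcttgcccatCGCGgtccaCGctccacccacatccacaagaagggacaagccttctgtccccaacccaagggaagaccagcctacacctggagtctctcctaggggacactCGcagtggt
S100b: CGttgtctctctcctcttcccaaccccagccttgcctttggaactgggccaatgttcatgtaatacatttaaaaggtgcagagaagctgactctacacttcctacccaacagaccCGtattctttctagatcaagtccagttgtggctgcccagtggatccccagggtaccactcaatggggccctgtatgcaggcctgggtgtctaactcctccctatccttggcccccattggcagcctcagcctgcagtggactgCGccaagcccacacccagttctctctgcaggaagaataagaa
Kcnj10: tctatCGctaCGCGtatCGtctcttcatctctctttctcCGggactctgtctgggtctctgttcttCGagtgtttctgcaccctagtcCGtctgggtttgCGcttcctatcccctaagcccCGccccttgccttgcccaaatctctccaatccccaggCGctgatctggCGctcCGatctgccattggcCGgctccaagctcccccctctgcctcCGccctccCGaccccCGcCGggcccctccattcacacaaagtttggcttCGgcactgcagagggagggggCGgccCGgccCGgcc
Glul: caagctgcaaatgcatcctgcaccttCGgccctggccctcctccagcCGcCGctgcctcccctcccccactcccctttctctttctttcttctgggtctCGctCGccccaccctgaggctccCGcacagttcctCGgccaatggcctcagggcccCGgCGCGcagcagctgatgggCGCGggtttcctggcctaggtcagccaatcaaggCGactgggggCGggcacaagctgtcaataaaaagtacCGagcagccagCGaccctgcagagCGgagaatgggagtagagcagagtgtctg

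The *S100b* and *Gjb6* windows held 3 and 6 CG dinucleotides, below the median of 7 over all 32851 promoter windows, while *Glul* held 17 and *Kcnj10* held 21. Of the windows not shown, *Slc1a2* (chr2:102706188-102706487) held 1, *Slc1a3* (chr15:8710758-8711057) held 3, *Gja1* (chr10:56377050-56377349) held 8, and the 2 windows of *Slc4a4* held 50 (chr5:88887010-88887309) and 3 (chr5:89027716-89028015). The *Slc1a2* window and the second *Slc4a4* window overlapped no scATAC-seq peak at any age, and the other 7 windows overlapped a peak at every age. *Slc1a2* has 3 annotated start sites, and 1 peak lay within 500 bases of a start at every age (7190, 7196 and 6820 bases). The accessibility of *Slc1a2* given below is that of this peak, which lies outside the window, so the window does not describe it. Short motifs were searched on both strands. The GC box (GGGCGG), present in 35.7% of all windows, was found in *Glul*, *Kcnj10* and 1 window of *Slc4a4*, and the *Slc1a3* window held it as well. The half-site of nuclear factor I (TTGGCA, 14.1% of all windows) was found in *S100b* alone, 19 bases before the start, the SOX core (ACAAAG, 18.7%) in *Kcnj10* alone, and the STAT letters (TTCNNNGAA, 8.30%) in *Slc1a3* alone. No window held the full palindromic nuclear factor I site, which 0.0365% of all windows held. A match is a description of letters in the window and says nothing of binding.

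After filtering, the P5, 12w and 24w libraries kept 12752, 5271 and 2794 cells, with medians of 4261, 2271 and 2178 unique molecular identifiers (UMIs, each a captured RNA molecule) per cell. The libraries shared between 26 and 86 cell barcodes pairwise. Cells were clustered without the 9 genes and named from fixed marker lists that do not hold them. The naming rule also counted markers among the 10 leading genes of each cluster, and the 9 genes could take places there. In order of age, the astrocyte-like (AS-like) class held 2497, 284 and 100 cells, in clusters 0, 1 and 10, and the NSC-like class held 1160, 339 and 99 cells in clusters 2 and 6. In AS-like cells 10, 11 and 10 of the 12 astrocyte markers were higher than in NSC-like cells at the 3 ages, and 12, 12 and 11 of the 12 NSC markers were lower. Cluster 2 carried both marker sets at nearly the same score (0.849 for NSC and 0.822 for AS) and held 266 of the 339 NSC-like cells at 12w and 81 of 99 at 24w, so values are also given without it. Cluster 6, with an NSC score of 1.53 and an AS score of 0.0535, had *Hopx* and *Tfap2c* among its leading genes. With 1 library per age no test was applied, and age cannot be told apart from library. Brackets and error bars are exact 95% intervals for UMI counts that cover counting error only. The libraries differed in sex as well: 281 of 284 AS-like cells at 12w held UMIs of *Xist* and none of Y-linked genes, 0 of 100 at 24w did so, and both kinds occurred at P5. The adult ages can therefore each be set against P5 cells of like sex, with which the same genes met the rule over age in both classes, whereas 12w and 24w cannot be told apart from sex. The share of pericyte-like cells was 3.04%, 45.9% and 62.2% in order of age, and the summed level of 8 pericyte markers within AS-like cells was 171, 1657 and 3081 CPM (UMI counts scaled to a common total) at the 3 ages and 286, 1367 and 3314 CPM in NSC-like cells. RNA free in the suspension was estimated at 10.95% and 13.4% of UMIs in AS-like cells at 12w and 24w. It could not be estimated at P5, where only barcodes with at least 1495 UMIs were listed.

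In the comparison of astrocytes with stem cells, 5 of the 9 genes, *Aqp4*, *Gja1*, *Gjb6*, *Slc4a4* and *S100b*, were at least 2-fold higher in AS-like than in NSC-like cells at every age. By the same rule 1.5% of the 3405 genes compared were higher in AS-like cells and 0.441% were lower. The glutamate transporters were not among the 5. The median log2 ratio of AS-like over NSC-like cells was 1.11, 1.34 and 1.31 over the 9 genes at P5, 12w and 24w, and −0.08, −0.13 and −0.17 over all genes compared. At single ages the rule was met by 5, 6 and 5 of the genes, against 3.87%, 3.28% and 4.8% of all genes compared. By the reverse rule 0 of the 9 were lower at any age, against 3.96%, 4.11% and 5.21% of all genes. The addition at 12w was *Glul*. With only the largest cluster of each class, 0 against 2, the rule was met by 2 genes, *Aqp4* and *Slc4a4*, beside 0.0812% of 2462 genes compared. *S100b* was over 2-fold higher there at every age by pooled level (190, 160 and 219 CPM in cluster 0 beside 69.4, 20.1 and 89.6 CPM in cluster 2). At 24w it rested on 15 UMIs in cluster 0, short of the 20 that the rule asks, and no interval of that ratio is given. *Gja1* fell short of 2-fold at P5 and 24w and *Gjb6* at P5. With cluster 2 left out of the NSC-like class the rule was met by 7 genes, *Slc1a2* and *Glul* in addition, beside 3.86% of 2645 genes compared.

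**Figure D1:**
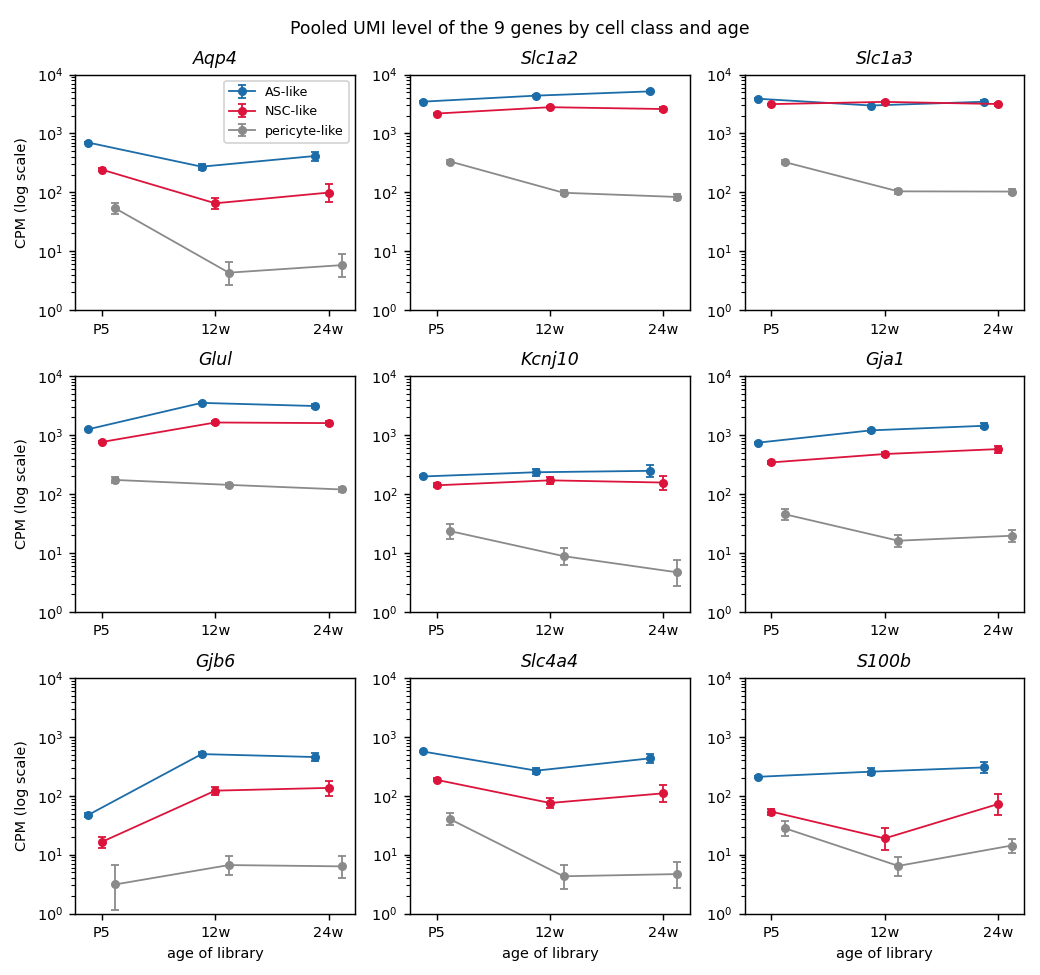
Pooled level of each gene in CPM on a log axis against the age of the library, in AS-like (blue), NSC-like (red) and pericyte-like cells (grey), with 95% intervals for counting error. AS-like cells lie above NSC-like cells for every gene but *Slc1a3*, where the lines cross, and *Gjb6* goes from 47.3 to 512 CPM between P5 and 12w in AS-like cells.

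*Slc1a2*, the main glutamate transporter of forebrain astrocytes, was at 3461 CPM [3428 to 3494], 4382 [4251 to 4516] and 5170 [4917 to 5433] in AS-like cells of increasing age. In NSC-like cells it was at 2173, 2786 and 2594 CPM. The ratio of AS-like to NSC-like cells was 1.59, 1.57 and 1.99, so the transporter was abundant in both. Within the NSC-like class, cluster 6 held 1161, 1728 and 1627 CPM and cluster 2 held 2894, 3168 and 2872 CPM. Among the other classes drawn in the plot by class the highest value was 552 CPM, in the 19 fibroblast-like cells at P5.

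*Slc1a3*, the transporter shared by radial glia and astrocytes, hardly separated the classes. Its level was 3883 CPM [3848 to 3918], 2977 [2869 to 3087] and 3451 [3245 to 3667] in AS-like cells and 3143, 3430 and 3154 CPM in NSC-like cells at P5, 12w and 24w. The ratio was 1.24 [1.21 to 1.26] at P5, 0.868 [0.827 to 0.910] at 12w and 1.09 for 24w, so AS-like cells were the higher class at P5 and the lower at 12w. With cluster 2 left out of the NSC-like class the log2 ratio at 12w was 0.10 in place of −0.20. Fibroblast-like cells came next, with 1212 CPM at P5 and 1499 at 12w, followed by neural progenitor-like cells with 1057, 662 and 650 CPM.

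*Glul*, which encodes glutamine synthetase, was at 1260 CPM [1240 to 1280], 3539 [3421 to 3660] and 3130 [2934 to 3336] in AS-like cells. In NSC-like cells it was at 766, 1643 and 1605 CPM, which gave ratios of 1.64, 2.15 and 1.95. Endothelial-like cells held 550, 1389 and 1767 CPM of *Glul*, and oligodendrocyte-like cells held 160, 562 and 1390 CPM. The endothelial-like and NSC-like values overlapped over ages, so these classes were not separated in the order below the AS-like cells.

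*Kcnj10*, the potassium channel, was measured at 199 CPM [191 to 207], 235 [205 to 267] and 248 [195 to 311] in AS-like cells. In NSC-like cells it was at 141, 171 and 157 CPM, with ratios of 1.41, 1.37 and 1.58. With only the largest cluster of each class the log2 ratio at 12w was −0.56 in place of 0.46. Ependymal-like cells, of the kind that lines the ventricles, held 156, 158 and 206 CPM, which overlapped both classes. Immature neuron-like, endothelial-like, pericyte-like and smooth muscle-like cells stayed at or below 23.4 CPM.

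*Aqp4*, the water channel, was at 699 CPM [684 to 714], 272 [240 to 307] and 413 [344 to 492] in AS-like cells, and at 242, 64.9 and 98.7 CPM in NSC-like cells. AS-like cells were higher at every age, by 2.88-fold [2.72 to 3.06], 4.19-fold [3.25 to 5.46] and 4.19-fold [2.85 to 6.31]. Ependymal-like cells held 383, 569 and 394 CPM, a range that overlapped that of AS-like cells. In pericyte-like cells, which should lack the channel, the level was 53.1 CPM at P5 and 4.30 and 5.78 CPM at 12w and 24w.

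*Gja1* and *Gjb6* form the gap junctions between astrocytes. *Gja1* was at 745 CPM [730 to 760], 1208 [1139 to 1279] and 1445 [1312 to 1587] in AS-like cells and at 345, 478 and 580 CPM in NSC-like cells, with ratios of 2.16, 2.53 and 2.49. *Gjb6* was at 47.3 CPM [43.6 to 51.3], 512 [468 to 559] and 456 [383 to 539] in AS-like cells and at 16.5, 122 and 136 CPM in NSC-like cells, with ratios of 2.87, 4.18 and 3.34. The connexins differed outside these classes: *Gja1* was present in ependymal-like cells at 336, 446 and 364 CPM, whereas *Gjb6* was at 5.81, 35.0 and 3.75 CPM there. Fibroblast-like cells at 12w held 554 CPM of *Gjb6*, from 17 UMIs in 11 cells.

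*Slc4a4*, the sodium bicarbonate cotransporter, was at 567 CPM [553 to 580], 268 [236 to 302] and 433 [362 to 514] in AS-like cells and at 187, 75.6 and 110 CPM in NSC-like cells. The ratios were 3.03, 3.54 and 3.93. Among the other classes of that plot the highest value was 115 CPM, in ependymal-like cells at P5.

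*S100b* was at 210 CPM [202 to 219], 257 [226 to 291] and 304 [245 to 373] in AS-like cells and at 54.0, 18.9 and 72.5 CPM in NSC-like cells. The ratio was 3.90, 13.6 [8.87 to 21.9] and 4.19, the high value at 12w resting on 23 UMIs in NSC-like cells, of which free RNA was predicted to account for 44.2%. Averaged over ages, it alone of the 9 genes was highest in a class other than AS-like among the classes of that plot. Oligodendrocyte-like cells held 900, 1845 and 1986 CPM, ependymal-like cells 418, 805 and 1224 CPM, and oligodendrocyte precursor-like cells 178 CPM at P5 and 777 CPM at 12w.

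**Figure D2:**
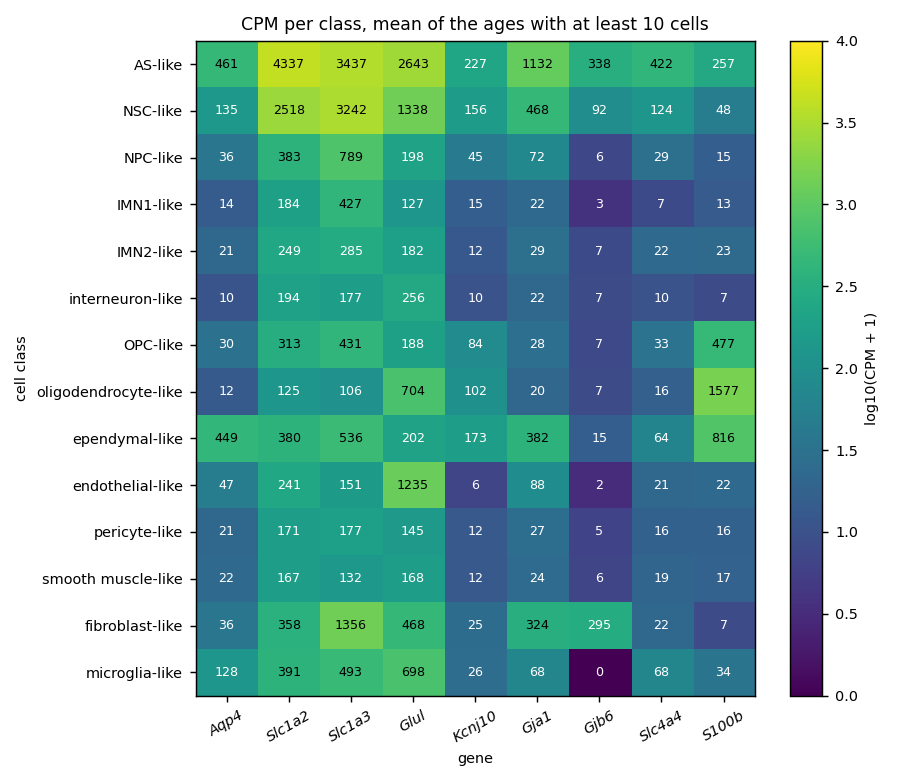
Level of each gene (columns) in each cell class (rows) as the mean over the ages with at least 10 cells, coloured by log10 of CPM plus 1 and printed in CPM. Among the classes drawn, which leave out the cluster led by haemoglobin genes and the unnamed clusters, the AS-like row is the highest in every column but *S100b*, where oligodendrocyte-like cells reach 1577 CPM.

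A cluster of 617 cells at P5 and 37 at 12w was led by haemoglobin genes and also had *Aldoc*, an astrocyte marker, and *Glul* among its leading genes. It was kept out of these comparisons. It held *Glul* at 1254 and 5119 CPM and *Slc1a2* at 1667 and 3839 CPM at P5 and 12w, so at 12w its *Glul* level was above that of AS-like cells. Its *Gjb6* level was 17.5 CPM at P5 and 286 CPM at 12w.

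Cells were thinned to 1000 UMIs each so that shares could be compared across depths. At P5, 12w and 24w an AS-like cell then held UMIs of a median of 4, 4 and 5 of the 9 genes, and an NSC-like cell of 3 at every age. The share of cells holding 5 or more was 45.2%, 45.4% and 61.0% of AS-like cells and 8.88%, 13.9% and 22.2% of NSC-like cells. In pericyte-like cells the median was 0 at every age. For *Gjb6* alone the share of thinned AS-like cells with a UMI was 4.69%, 30.3% and 34.0% in order of age, beside 0%, 0.413% and 0.690% of pericyte-like cells.

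The second comparison was between ages. In AS-like cells, *Gjb6* and *Glul* were at least 2-fold higher at both 12w and 24w than at P5 and none of the 9 genes was 2-fold lower at both. Among the 11989 genes compared, 3.04% were higher and 5.63% lower by this rule. In NSC-like cells, *Gjb6* and *Glul* were higher and *Aqp4* lower by the rule, against 3.32% higher and 5.13% lower of 10842 genes. With only the largest NSC-like cluster, cluster 2, *Glul* missed the rule (1033, 1833 and 1785 CPM in order of age), as it did when ratios were divided by the median over genes, and at the other resolutions of 0.4 and 1.2 *Aqp4* missed it. At 1.2 *Gjb6* missed it as well, and *Slc4a4* was counted as lower there and with only cluster 2. In AS-like cells *Aqp4* was counted as lower at 1.2. The comparisons at 12w and 24w share the P5 library. With cluster 2 left out of the NSC-like class the count there was 1, *Glul*, beside 0.883% higher and 3.72% lower of 8717 genes. This came from the 73 and 18 cells of cluster 6 at 12w and 24w. In that cluster *Gjb6* was at 5.46 CPM [2.82 to 9.54], 61.8 [37.8 to 95.5] and 26.0 [3.15 to 94.0] in order of age. The 24w value rests on 2 UMIs, short of the required 20. Its interval overlaps that at P5, so a 2-fold difference from P5 is not shown there. *Aqp4*, at 109, 21.6 and 52.1 CPM, was short of 2-fold lower at 24w. The marker lists also moved with age within the classes. The summed level of the 12 astrocyte markers was 5281, 16942 and 13626 CPM in AS-like cells and 3572, 10324 and 9742 CPM in the NSC-like class, in order of age. That of the 12 NSC markers was 889, 3545 and 2697 CPM in the former and 2472, 4939 and 3587 CPM in the latter. The 8 oligodendrocyte precursor markers went the other way, at 1053, 390 and 198 CPM in AS-like cells and 464, 35.3 and 75.5 CPM in the NSC-like class, with 4 of them at 0 at 24w in each. The 8 markers of dividing cells were also lower in the adult, at 282, 94.1 and 102 CPM in AS-like cells and 350, 124 and 197 CPM in the NSC-like class. The part of these shifts in the age ratios was not tested.

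*Gjb6* showed the largest ratio of the 9. In AS-like cells it was 10.8-fold [9.58 to 12.2] and 9.64-fold [7.95 to 11.6] higher in the adult libraries, 12w first, than at P5. In NSC-like cells it was 7.43-fold [5.67 to 9.80] and 8.28-fold [5.68 to 11.9] higher. The AS-like clusters held different shares of the class at each age: 1333 of 2497 cells were in cluster 0 at P5, whereas 137 of 284 at 12w and 48 of 100 at 24w were in cluster 1. Within clusters *Gjb6* went from 25.2 to 453 and 364 CPM in cluster 0, from 88.8 to 737 and 589 CPM in cluster 1, from 35.8 to 202 and 322 CPM in cluster 10 and from 24.3 to 144 and 168 CPM in cluster 2. The higher adult level was thus present in each of these clusters. Set against P5 cells of the like sex, by *Xist* and Y-linked UMIs, the log2 ratios for 12w and 24w in AS-like cells were 3.59 and 3.34, beside 3.44 and 3.27 over all P5 cells.

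*Glul* was 2.81-fold [2.71 to 2.92] and 2.49-fold [2.32 to 2.65] higher in AS-like cells at 12w and 24w than at P5, and 2.14-fold [2.03 to 2.26] and 2.10-fold [1.91 to 2.29] higher in NSC-like cells. In cluster 6 it went from 391 to 1116 and 976 CPM and in cluster 1 from 1428 to 4688 and 4226 CPM. *Gja1* had ratios of 1.62 and 1.94 in AS-like cells and 1.39 and 1.68 in NSC-like cells, short of the 2-fold rule. Cluster 10 went the other way for *Gja1* at 12w, from 758 to 608 CPM.

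*Aqp4* stood at 0.389 [0.343 to 0.440] and 0.591 [0.492 to 0.705] of its P5 level in AS-like cells of 12w and 24w, and at 0.268 [0.211 to 0.336] and 0.407 [0.281 to 0.572] in NSC-like cells. *Slc4a4* had a like course, at 0.473 and 0.764 in AS-like cells and 0.404 and 0.589 in NSC-like cells. Both were lower at 12w than at 24w in AS-like cells, where the ratio of 24w to 12w was 1.52 [1.22 to 1.89] for *Aqp4* and 1.62 [1.30 to 2.00] for *Slc4a4*. The pericyte-like level of *Aqp4* also differed by age, as given above. The part of free RNA in the P5 values was not tested.

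The other genes met the rule in neither class. In AS-like cells at 12w and 24w the ratios to P5 were 1.27 and 1.49 for *Slc1a2*, 1.18 and 1.25 for *Kcnj10*, 0.767 and 0.889 for *Slc1a3*, and 1.22 and 1.45 for *S100b*. In NSC-like cells they were 1.28 and 1.19 for *Slc1a2*, 1.21 and 1.11 for *Kcnj10*, and 1.09 and 1.004 for *Slc1a3*. For *S100b* they were 0.350 [0.218 to 0.536] and 1.34 [0.856 to 2.03], from 23 and 25 UMIs, and the interval for 24w includes 1. *S100b* differed among the AS-like clusters: it was at 256, 419 and 504 CPM in cluster 1, 190, 160 and 219 CPM in cluster 0, and 177, 61.1 and 64.4 CPM in cluster 10. The direction for *Kcnj10* at 12w depended on the setting. Its AS-like log2 ratio was −0.47 in place of 0.24 with only the largest cluster. The NSC-like one was −0.15 at a resolution of 1.2 and −0.13 with cluster 2 left out, in place of 0.28. The median log2 ratio of the 9 genes to P5 was 0.29 at 12w and 0.54 at 24w in AS-like cells, beside 0.04 and 0.15 over all genes, and 0.28 and 0.26 in NSC-like cells, beside 0.05 and 0.12.

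**Figure D3:**
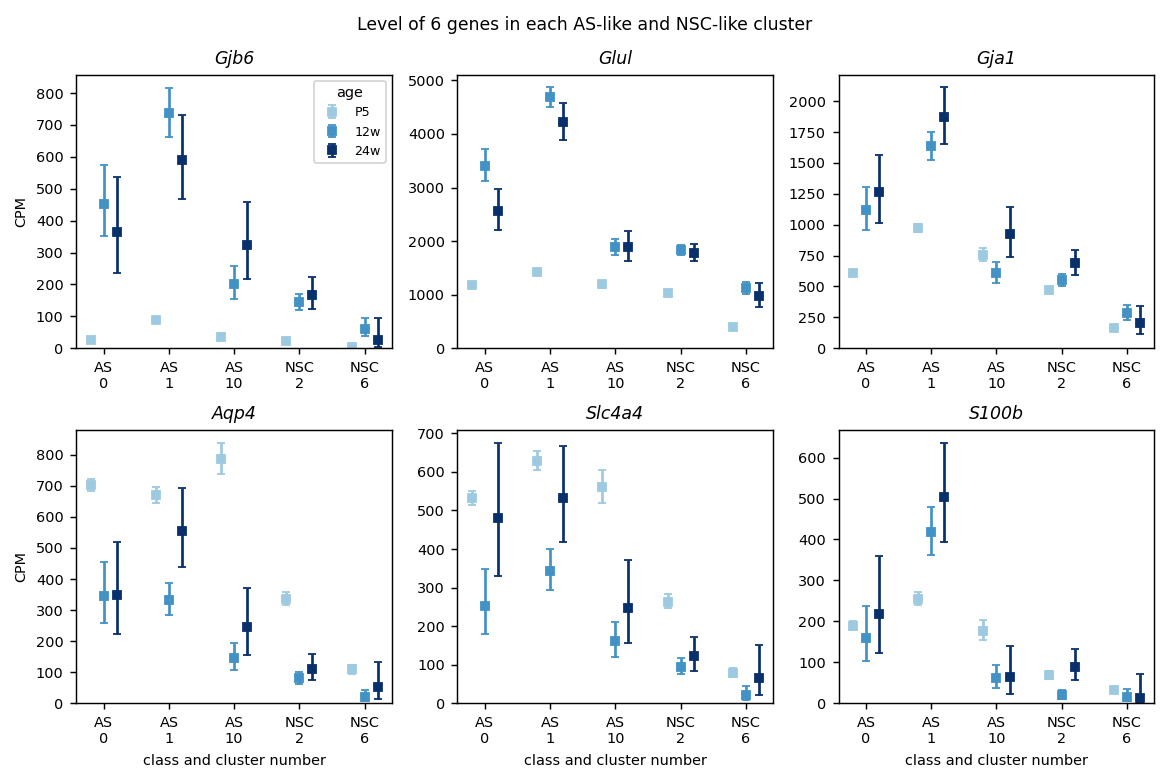
Level of 6 of the genes in CPM in each AS-like and NSC-like cluster at P5, 12w and 24w (light to dark), with 95% intervals for counting error. *Gjb6* and *Glul* lie higher at 12w and 24w than at P5 in each cluster, *Aqp4* lies lower in each, and *S100b* lies higher in cluster 1 and lower in cluster 10. The *Gjb6* value of cluster 6 at 24w rests on 2 UMIs and its interval overlaps that at P5.

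Another 37 genes of the same processes were taken from 6 lists. In AS-like cells 36 could be compared over age, of which 3 were counted as higher and 2 as lower, beside the 3.04% and 5.63% of all genes given above. The 3 were *Kcnk1*, a background potassium channel (49.3, 235 and 182 CPM), *Clcn2*, a chloride channel (12.5, 60.0 and 76.0 CPM), and *S100a10* (37.2, 148 and 169 CPM). *Grm5*, a metabotropic glutamate receptor, was counted as lower, at 177, 11.4 and 3.31 CPM. *Panx1*, a pannexin, was counted as well, at 10.3, 3.10 and 0 CPM, but 0 at 24w allows up to 9.92 CPM, so a 2-fold difference from P5 is not shown there. In NSC-like cells 35 could be compared, of which 1 was higher and 2 were lower, beside 3.32% and 5.13% of all genes. *Clcn2* was the higher (12.1, 59.2 and 66.7 CPM), and the lower were *Grm5* (35.8, 0 and 0 CPM, where 0 allows up to 2.47 and 8.71 CPM) and *Kcnk1* (24.6, 7.40 and 2.90 CPM). *Kcnk1* was thus counted in opposite directions in the 2 classes, a difference that was not tested. Its NSC-like value at 24w lay below the 8.71 CPM that 3 UMIs correspond to, so a 2-fold difference from P5 is not shown there. None of the 7 genes for anchoring *Aqp4* at the endfoot met the rule in either class, nor did the 4 for pH. Between classes, 1 of 24 genes compared met the rule, beside 1.5% of all genes, namely *Grm3*, a metabotropic glutamate receptor of astrocytes, at 110, 98.2 and 175 CPM in AS-like and 48.5, 27.9 and 55.1 CPM in NSC-like cells.

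Over 33 groups of class and age, the genes whose levels followed the mean of the 9 most closely were *Apoe* (Pearson r = 0.966), *Fgfr3* (0.958), *Ttyh1* (0.956), *Adhfe1* (0.954) and *Hepacam* (0.9496), of 8835 genes compared. *Fgfr3* was a marker used in naming and *Hepacam* a gene of the lists above. The groups share 3 libraries and differ in depth, so these are descriptions. Among the 9, the closest partners were *Slc1a2* and *Slc1a3* (0.944), *Slc1a2* for *Slc4a4* (0.893) and for *Gjb6* (0.793), *Slc4a4* for *Aqp4* (0.876), *Aqp4* for *Gja1* (0.869) and *Kcnj10* (0.775), *Kcnj10* for *S100b* (0.747) and *Gjb6* for *Glul* (0.714).

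Chromatin at the start sites was compared between astroglial nuclei, in which clusters named AS and NSC were pooled, and neuronal nuclei. They were pooled because the single such cluster at 24w, named AS, scored close on both lists (1.64 for AS and 1.59 for NSC). The pool held 1318 AS-named and 313 NSC-named nuclei at P5, and 228 and 442 at 12w. There were 1631, 670 and 303 astroglial and 2770, 3536 and 572 neuronal nuclei in order of age, and each age was again 1 library. The neuronal nuclei were those of clusters named for immature neurons. No cluster was named for neural progenitors, so progenitor nuclei were not set apart from them. The NSC scores of the neuronal clusters ranged from −0.341 at P5 to 1.198 at 12w, the latter beside an immature neuron score of 1.317. Their AS scores ranged from −0.495 at P5 to 0.707 at 24w. The part of this mix in the ratios to neuronal nuclei was not tested. Accessibility is given as transposase cut counts in peaks within 500 bases of an annotated start site, scaled to CPM over all peaks. The starts of *Aqp4*, *Kcnj10*, *Gja1*, *Gjb6* and *S100b*, 5 of the 9 genes, were at least 1.5-fold more accessible in astroglial nuclei at every age. This rule was met by 3.63% of 14643 genes, and 7.53% met it in the opposite direction. The median log2 ratio was 1.11, 0.98 and 1.24 over the 9 genes and −0.05, 0.08 and 0.04 over all.

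*S100b*, with few CG dinucleotides in its promoter, had 14.0, 4.59 and 6.04 CPM in astroglial and 3.74, 1.51 and 1.32 in neuronal nuclei, a ratio of 3.74, 3.04 and 4.58. *Gjb6* had 14.2, 25.8 and 26.9 against 4.96, 6.21 and 8.31, a ratio of 2.86, 4.15 and 3.24. *Aqp4* had 17.9, 13.7 and 9.41 against 5.46, 3.72 and 3.08, a ratio of 3.29, 3.69 and 3.06. *Gja1* had ratios of 2.59, 2.63 and 2.41 and *Kcnj10* of 2.15, 1.97 and 2.35. Of these 5, all but *Kcnj10* were also 2-fold higher in AS-like than in NSC-like cells by RNA, a comparison with other reference cells.

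The starts of the glutamate genes differed less between the nuclei. The ratio was 1.40, 1.501 and 1.73 for *Slc1a2*, 1.62, 1.18 and 1.38 for *Slc1a3*, and 1.05, 1.40 and 1.32 for *Glul*, whose CG-rich start was also open in mural (vessel wall) nuclei at 79.4, 63.7 and 66.6 CPM beside 70.8, 83.8 and 86.4 in astroglia. *Slc4a4* had ratios of 1.72, 1.23 and 1.23. In mural nuclei *Aqp4* had 5.12, 0.287 and 0.0532 CPM and *Slc1a2* had 15.6, 2.74 and 1.32. *S100b* was most open in oligodendrocyte precursor nuclei, at 38.7, 17.3 and 27.7 CPM, the lineage that also held more of its RNA than AS-like cells at 12w.

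**Figure D4:**
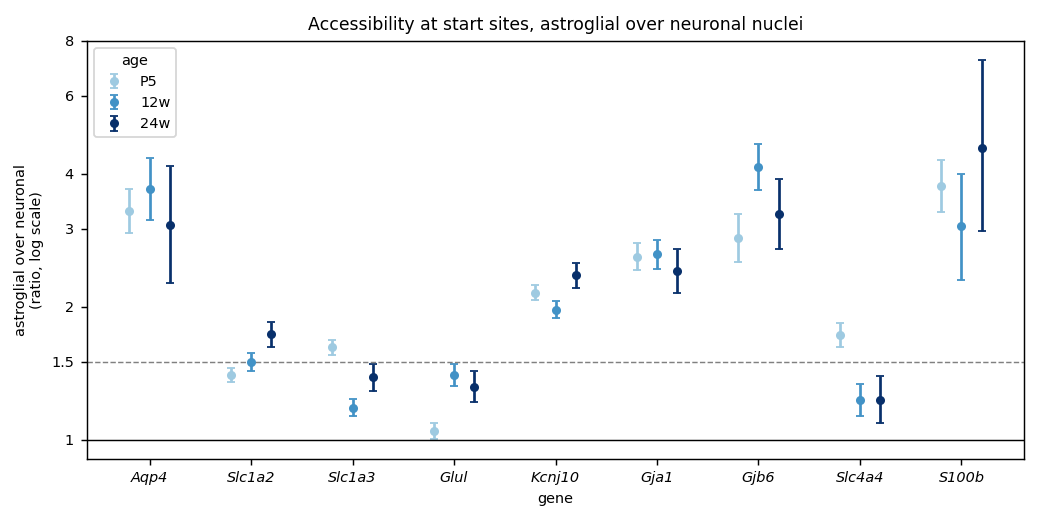
Ratio of accessibility at the start sites in astroglial over neuronal nuclei for each gene at P5, 12w and 24w, on a log axis. The 95% intervals treat each cut as independent and are too narrow, as most cuts came in pairs. The dashed line is the 1.5-fold rule, which *Aqp4*, *Kcnj10*, *Gja1*, *Gjb6* and *S100b* pass at every age.

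Over age in astroglial nuclei, the *Gjb6* start was 1.82-fold [1.61 to 2.04] and 1.90-fold [1.66 to 2.16] more accessible at 12w and 24w than at P5. The peaks counted there covered 1923, 1922 and 1865 bases at the 3 ages. This was the largest of the 9 ratios at both ages. For *Glul* the ratios were 1.18 and 1.22, for *Gja1* 1.32 and 1.31, for *Kcnj10* 1.22 and 1.34, and for *Slc1a2* 1.21 and 1.43. *Aqp4* was at 0.764 and 0.525 and *S100b* at 0.328 and 0.431, but their peaks were called over unequal lengths (2309, 1334 and 737 bases for *Aqp4*, 2891, 742 and 692 for *S100b*), so these values do not compare like with like. *Slc1a3*, at 1.41 and 1.17, had peaks of 8635, 14173 and 8600 bases, and *Slc4a4*, at 0.987 and 0.880, of 2579, 4578 and 2497 bases. The median log2 ratio over all genes was −0.11 and −0.05. The mix of AS-named and NSC-named nuclei in the astroglial pool differed by age, and its part in the ratios over age was not tested.

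The last comparison was Setd8 KD in cultured NSCs. *Setd8* encodes the enzyme that monomethylates histone H4, and its level checks the labels. Its level in TPM (transcripts scaled by length and library total) was 154 in the library labelled Ctrl_3, 143 in that labelled Setd8KD_1, 143 in that labelled Setd8KD_2 and 36.4 in that labelled Setd8KD_3. The values of the first 3 libraries equalled those of the control columns, and the values of the fourth equalled a KD column, for all 169 genes of the study's own table of TPM that could be compared. The libraries were therefore grouped as 3 controls and 1 KD, and the 1 KD library gives no measure of the spread within the KD. No source says that the libraries came from separate cultures, so p-values measure the spread between these libraries only. By limma on log2(TPM + 1) with Benjamini-Hochberg adjustment, *Setd8* was lower by −1.98 ± 0.07 (log2, SE; adjusted p = 0.000502).

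The cells held *Nes*, the gene of the NSC filament nestin, at 191, 223, 236 and 150 TPM in these 4 libraries, whereas *Emx1*, a gene of the dorsal forebrain, had 0 reads in each. Both marker lists were mixed in these cells. Among the NSC markers *Hopx* was at 44.4, 40.7, 41.1 and 56.1 TPM, whereas *Tfap2c*, *Wnt8b* and *Vnn1* had between 0 and 2 reads. Among the astrocyte markers *Igfbp2* was at 3894, 3914, 4106 and 4403 TPM, whereas *Cldn10* was at 0.314, 0.229, 0.405 and 0.236. All 8 markers of dividing cells were lower in the KD library than in any control, for example *Top2a* at 73.7 TPM beside 195, 231 and 216, and their part in the results below was not tested.

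Cultured NSCs contained most of the transcripts. As these are bulk values, fewer cells with a transcript and less of it per cell cannot be told apart. *Slc1a3* was at 475, 550 and 525 TPM in the controls and *Glul* at 249, 258 and 249 TPM, while *Gja1* was at 57.4, 59.9 and 55.4 and *Slc4a4* at 45.6, 47.9 and 47.5 TPM. *S100b* was at 14.7, 16.03 and 13.2 TPM, *Slc1a2* at 4.73, 6.13 and 4.71 and *Kcnj10* at 1.42, 1.89 and 1.90. *Aqp4* was near the limit, at 0.713, 0.520 and 0.644 TPM from 32, 24 and 28 reads. *Gjb6* had 0 reads in all 4 libraries, which allows up to 0.155 TPM in the library labelled Ctrl_3. On this scale, which is per length, *Slc1a3* was thus the more abundant glutamate transporter and *Gjb6* was not detected.

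Of the 7 genes that passed the filter of 1 TPM in at least 1 library, 2 were called between the KD library and the controls. With 1 KD library the test takes its spread from the 3 controls and assumes that the KD would vary alike, so it compares these libraries and does not show an effect of the KD. In this design 38.9% of 13233 genes were called, 18.9% higher and 20% lower, and 2 of 7 is not above that share. *Glul* was lower in the KD library, at 212 TPM (log2 −0.25 ± 0.05, SE; limma adjusted p = 0.0136), and *Slc4a4* was higher, at 59.1 TPM (0.32 ± 0.06, SE; limma adjusted p = 0.0134). The KD value lay outside the range of the 3 controls for each of the 7 genes. The share of all genes for which this held was not computed, so it shows nothing particular to the 7. The KD library held 612 TPM of *Slc1a3*, above the controls, but the difference did not pass (limma adjusted p = 0.0683). Its other values were 3.76 TPM for *Slc1a2* (limma adjusted p = 0.145), 2.08 for *Kcnj10* (0.514), 61.0 for *Gja1* (0.385) and 12.4 for *S100b* (0.213). *Aqp4* was at 0.0894 TPM from 4 reads in the KD library. The reads recovered from TPM numbered between 20040076 and 21493347 per library, and on these edgeR's quasi-likelihood test called 5 of 8 genes, against 41.5% of 14657 genes: in addition *Aqp4* (log2 −2.78, adjusted p = 0.00132) and *Slc1a2* (−0.48, adjusted p = 0.0174) were lower and *Slc1a3* (0.23, adjusted p = 0.0261) higher. Without the library labelled Setd8KD_1, limma no longer called *Glul*, and without the filter on low values it called neither *Glul* nor *Slc4a4*. With the 4 libraries grouped by their labels, 1 against 3, limma called 0 of 13233 genes and 114 had an unadjusted p under 0.05, none of them among the 7, so both calls rest on the grouping by the study's table.

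**Figure D5:**
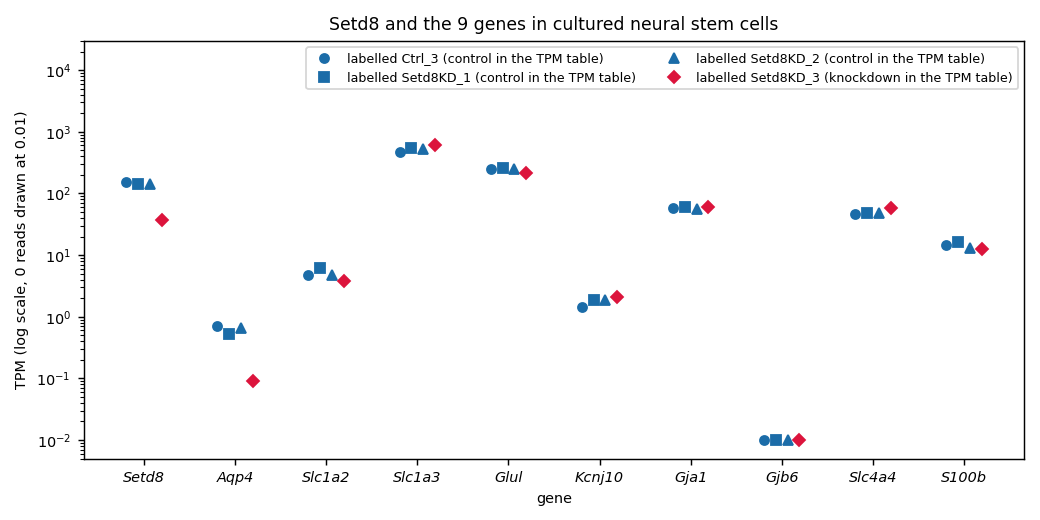
TPM on a log axis of *Setd8* and the 9 genes in the 4 libraries of cultured NSCs, 1 point per library, with the 3 libraries that match control columns in blue and the 1 that matches a KD column in red. *Setd8* is at 36.4 TPM in the KD library and between 143 and 154 in the controls, and *Gjb6*, with 0 reads, is drawn at 0.01.

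Of the 37 further genes 35 were tested by limma, and 11 were higher and 4 lower in the KD library, beside 18.9% higher and 20% lower of all genes. The same limit of 1 KD library holds for each value below. Those higher in the endfoot list included *Hepacam* (log2 0.96), *Mlc1* (0.66) and *Dtna* (0.48), the first 2 of which encode partners in a membrane complex at astrocyte contacts. In the S100 family *S100a1* (0.96), *S100a10* (0.49) and *S100a13* (0.37) were higher. *Grm5* (−0.75), the connexin gene *Gjc1* (−0.56), *Slc12a2* (−0.29) and *Slc6a9* (−0.27) were lower.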

How the data were processed

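The scRNA-seq values are UMI counts per gene and barcode that the authors deposited after Cell Ranger on mm10, and the scATAC-seq values are deposited counts of transposase cuts per peak, called per library by the authors. The bulk values are TPM that the authors deposited after alignment to mm10 with STAR, with a small constant in every gene. Cells were required to have 1000 or more UMIs and 500 or more genes, with mitochondrial UMIs no higher than 10%, doublets were removed with scrublet in scanpy 1.11.5 (932, 80 and 3 cells), and libraries were integrated with Seurat 5.3.0 (2000 features, resolution 0.8). The 4 unnamed clusters in which astrocyte markers were highest (2193, 137 and 36 cells) were left out of the AS-like class. Nuclei with over 3000 and under 100000 counts were kept, and doublets were not called among them. Levels were pooled per class and age as CPM. A gene was counted for a ratio of at least 2, with at least 20 UMIs where higher, and chromatin for at least 1.5. On simulated data the rule over age recovered 98% and 96% of 3-fold changes in AS-like and NSC-like cells, 30% and 14% of 2-fold changes and 0% where nothing changed. With 1 library per age the spread between libraries is unknown, so the 0% is not a rate of false calls over age.

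Of the 6 bulk files, 4 hold TPM, and the files of the samples labelled Ctrl_1 and Ctrl_2 hold the gene symbols and lengths. Genes with at least 1 TPM in at least 1 library were tested with limma 3.58.1, with trend, on log2(TPM + 1). In each library, whole reads were recovered within 0.01 for 100% of genes under 50 reads (81.4% to 85.2% of all genes), and these reads were tested with edgeR 4.0.16 (quasi-likelihood, TMM). On simulated libraries limma recovered 98% and edgeR 100% of 2-fold changes, and 60% and 92% of 1.5-fold changes. Smaller changes were not simulated. The rule for named genes was the 9 genes throughout, list genes that met a rule, up to 4 per list, the 5 genes nearest to their mean pattern, and *Setd8*. List genes in the bulk data and the cell type markers named there were chosen after their values were seen. Some list genes are not reported here. The genes and lists were chosen with earlier results of these data known. Bulk ATAC-seq and H4K20me1 samples were not analysed here. The 4 bulk libraries were grouped by exact match of their values to the study's table of TPM, and by their labels as an alternative. Alternatives are given in the closing section.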

Additional observations from a re-analysis of the deposited data

Results flagged for a closer look

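The ratio of 12w to P5 went opposite ways in the 2 glial classes for 2 genes, with intervals on opposite sides of 1, and these differences between classes were not tested. For *Slc1a3* the ratio was 0.767 in AS-like cells and 1.09 in NSC-like cells. For *S100b* it was 1.22 in AS-like cells and 0.350 in NSC-like cells, where the 12w value rests on 23 UMIs and the ratio of 24w to P5 was 1.34 [0.856 to 2.03]. At a resolution of 1.2 the AS-like log2 ratio of *S100b* was −0.44, and with the NSC-like cluster 2 left out the NSC-like log2 ratio of *Slc1a3* was −0.11, so neither opposition held under every setting.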

How the results depend on the processing

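The rules of size were recomputed under other settings, some of them chosen after seeing the data (cluster 2 left out or counted as AS-like, unnamed astrocyte clusters added, the whole pericyte-like profile subtracted and the remainder scaled to its own total). The count of genes higher in AS-like than in NSC-like cells, 5, was 2 with only the largest cluster of each class and between 4 and 7 otherwise. With only the largest clusters *S100b* was over 2-fold higher by pooled level but held fewer than the 20 UMIs at 24w. The rule was met by 0.0812% of all genes with only the largest clusters and by 1.27% to 6.61% otherwise. The count that changed with age in AS-like cells, 2, was 4 at 1.5-fold (with *Gja1* and *Aqp4*), a rule that 5.51% of all genes met as higher and 12.3% as lower, and 2 or 3 otherwise, with *Glul* and *Gjb6* in every setting tried. In those other settings 0.798% to 4.98% of all genes were higher and 3.86% to 25.7% lower. In NSC-like cells the count, 3, was 1 with cluster 2 left out and 1 with it counted as AS-like (*Gjb6* lost, with 2 UMIs at 24w), and between 2 and 4 otherwise. In both settings with a count of 1, 0.883% of all genes were higher and 3.72% lower. Otherwise 1.03% to 6.30% were higher and 3.59% to 28.2% lower. In the NSC-like class *Glul* was lost with only the largest cluster and with ratios divided by the median over genes, *Aqp4* at resolutions of 0.4 and 1.2, and *Slc4a4* entered as lower at 1.2, with only the largest cluster and at 1.5-fold. At a resolution of 1.2 *Gjb6* missed the NSC-like rule at 24w (log2 ratio 1.85, with fewer than the 20 UMIs the rule needs) and at that setting *Aqp4* met the AS-like rule. The chromatin count stayed at 5 under all 3 alternatives. After Setd8 KD the count, 2, was 0 without the filter on low values, 5 by edgeR, 0 with the libraries grouped by their labels, and 1 to 3 when a control library was left out: 3 without that labelled Ctrl_3, 1 without that labelled Setd8KD_1 and 2 without that labelled Setd8KD_2, of 7 each, beside 41.4%, 24.7% and 31.5% of all genes. Without the filter limma called 9.28% of 24062 genes, with 3 of the 9 genes at an unadjusted p under 0.05, and with the label grouping it called 0 genes, with 114 genes and 0 of the 7 at an unadjusted p under 0.05. With the label grouping the log2 change of *Slc1a2* was 0.014 in place of −0.37. Where no value above shows it, the cause was not tested. The lone KD library could not be left out. No paired analysis was possible because the libraries that hold values share only replicate number 3 between the labelled groups. Depth limits the adult classes most: at 24w 3 UMIs correspond to 9.92 CPM for AS-like cells and to 8.71 CPM for the NSC-like class.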

Other observations

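The 4 clusters in which astrocyte markers were highest but which the naming rule left unnamed held 17.2%, 2.60% and 1.29% of cells in order of age. The largest, of 955, 99 and 29 cells, was led by haemoglobin genes beside astrocyte markers. It held *Aqp4* at 892, 361 and 614 CPM, *Glul* at 740, 2318 and 1897 CPM and *Gjb6* at 73.5, 643 and 892 CPM. The next, of 625 cells at P5 and 19 at 12w, held *Aqp4* at 1782 and 941 CPM, both above the AS-like class at the same age. With all 4 added to the AS-like class, *Gja1* no longer met the rule against NSC-like cells, and the genes counted over age were again *Glul* and *Gjb6*.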
